A study of Arabidopsis thaliana with 6 samples.

Results

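The TRM genes of Arabidopsis thaliana were described across seedlings kept under anoxia with sucrose, under anoxia, and in air. Members were all probe sets whose single annotated gene has the symbol TRM followed by a number. They numbered 15 of the 13513 probe sets with a single gene. The symbol stands for unrelated proteins. The RefSeq gene table names 14 of the 15 as TON1 Recruiting Motif genes (TRM15, TRM18 to TRM26, TRM28, TRM31, TRM33 and TRM34) and 1, TRM82, as a tRNA modification gene. Members were chosen by symbol, and no intensity entered the rule. The family itself was picked for description with its changes between the 3 groups already known, so the p-values below describe the members and are no independent evidence for them.

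All 3 groups were 4-day-old seedlings of the ecotype Columbia glabra, raised in darkness at 23 °C in half-strength Murashige and Skoog medium without sugar and then treated for 6 h. The groups were anoxia in 90 mM sucrose, anoxia without sucrose, and air without sucrose, with 2 Affymetrix arrays each, 1 per experiment. RNA of 4 cultures was pooled for each array. The RNA came from whole seedlings, in which fewer cells of a type and less RNA per cell cannot be told apart.

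TON1-recruiting-motif proteins carry short conserved motifs, among them one that binds TON1, a small protein related to centrosomal proteins of animals. Together with TON1 and a protein phosphatase of type 2A that contains the regulatory subunit TON2, they form a complex on plant microtubules. The complex is needed for ordered cortical microtubules, which guide cellulose deposition and the direction of cell growth, and for the preprophase band, which marks the plane of division. Members differ in whether they sit on microtubules and in whether they bring TON1 there. The best studied are LONGIFOLIA1 and LONGIFOLIA2, which promote lengthwise growth of cells. TRM82 takes its name from budding yeast, where Trm82 is the non-catalytic partner of a tRNA guanine methyltransferase and supports tRNA stability. The RefSeq table holds 34 TON1 Recruiting Motif genes, and the 20 without a single-gene probe set, LONGIFOLIA1, LONGIFOLIA2 and TRM3 to TRM14 among them, are not analysed here.

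Brightness was uneven among the arrays. Median intensity was 21.2 to 50.6 per array, so each value is given as log2(intensity + 16) minus the median of its array. On this scale changes of dim probe sets can be understated. Near the floor they can also be reversed, because the array medians differ. In experiment 1 TRM23 read 1.4 under anoxia and 0.4 under anoxia with sucrose, yet its change on this scale was 0.64. The anoxia with sucrose array of experiment 1 was the dimmest. Its 3′ to 5′ signal ratio was 21.6 for one pair of actin control probe sets and 7.61 for the GAPDH pair, against 1.70 to 4.24 and 1.38 to 2.42 on the other 5 arrays, while an older actin pair also stood high in air in experiment 1 (20.3 on the sucrose array, 18.5 on that air array and 8.36 to 11.01 on the other 4). Experiment 1 stood apart in the 25S ribosomal RNA control probe set, with an intensity of 848 under anoxia with sucrose, 1211 under anoxia and 168 in air in experiment 1, and 8.2, 4.2 and 12.5 for the same groups in experiment 2. The part of these control signals in the TRM values was not tested. Signal of the etiolated plastid marker PORB, an enzyme of chlorophyll synthesis, was 522 to 3486 over the arrays. The green plastid marker LHCB4.1 read higher than PORB on every array, at 1499 to 5114. Both ranges are intensities not corrected for the brightness of the array. Of 22 organ and cell type markers on the list used, 9 had a single-gene probe set. Replicate numbers recur as experiment numbers in every group, and changes are given within each experiment as well.

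Of the 15 members, 11 passed the filter on low values (the dimmest 30% by mean were set aside), 10 of the TON1-recruiting-motif genes and TRM82. The other 4 were dim and were not tested. TRM23 read 0.4 and 1.5 under anoxia with sucrose, 1.4 and 9.0 under anoxia and 1.0 and 2.6 in air (intensities of experiments 1 and 2), and TRM31 read 13.3 and 12.9, then 9.5 and 3.3, then 9.6 and 7.7 in the same order of groups. TRM24 exceeded 16 on 1 array only, at 17.7 in air, and TRM33 on 1 only, at 18.5 under anoxia. Values this low lie near the floor, and their replicate differences reached 0.86 to 1.17 on the log2 scale. TRM33 was higher under anoxia than in air in both experiments (0.46 and 0.44), as were 34.3% of all probe sets tested. For TRM31 both sucrose arrays lay above both anoxia arrays (0.92 and 0.11), as for 9.47% of all probe sets tested. The 0.92 came from the dimmest array, the sucrose array of experiment 1. There the other dim members, TRM24, TRM23 and TRM33, were also above their anoxia values, by 0.93, 0.64 and 0.06. For TRM23 the intensity had fallen.

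TRM28 was the member with the widest spread between groups. Its intensity was 14.4 and 36.1 under anoxia with sucrose, 19.1 and 11.6 under anoxia, and 66.1 and 40.1 in air (experiments 1 and 2). Relative to the array median it stood at -0.29 and -0.35 under anoxia with sucrose, -0.80 and -0.80 under anoxia, and 0.40 and 0.26 in air. On this scale no 2 groups overlapped: air was highest, anoxia lowest and anoxia with sucrose between them. The 2 arrays of a group differed by at most 0.14, against a range of group means of 1.13.

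TRM18 and TRM21 also had their highest group mean in air. TRM18 stood at -0.56 and -0.63 under anoxia with sucrose, -0.44 and -0.75 under anoxia and -0.13 and -0.20 in air. Its intensity was below 16 on 1 array of each anoxia group. It read 9.2 with sucrose in experiment 1 and 12.6 without sucrose in experiment 2. Both anoxia groups lay below air and overlapped each other. TRM21 stood at 0.82 and 1.18 under anoxia with sucrose, 0.89 and 0.89 under anoxia and 1.53 and 1.11 in air, so that the anoxia arrays lay below both air arrays and the sucrose arrays overlapped them.

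TRM26 and TRM15 had group means that spanned 0.96 and 0.84, less than their largest replicate differences of 1.51 and 1.16. TRM26 stood at -0.27 and 1.24 under anoxia with sucrose, 0.44 and 0.91 under anoxia and 1.22 and 1.67 in air. Both anoxia arrays lay below air, and the sucrose arrays spanned the anoxia values, with the low one on the array of high 3′ to 5′ ratios. TRM15 stood at -0.52 and 0.27 under anoxia with sucrose, -0.61 and 0.55 under anoxia and 0.48 and 0.96 in air, where experiment 2 was the higher in every group. Its sucrose arrays lay below both air arrays, and its anoxia arrays did not.

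The remaining tested members gave no order of the groups beyond their replicate differences. TRM19, at 0.64 and 0.98 under anoxia with sucrose, 0.47 and 1.14 under anoxia and 0.24 and 0.77 in air, had its lowest mean in air. TRM22 stood at -0.33 and -0.01, -0.54 and 0.47, and 0.16 and 0.35 for the same groups in that order, so that its sucrose arrays alone lay below both air arrays. TRM25 had the least spread between group means, 0.20, and the widest gap between air arrays, 1.39. For TRM20 the group means were 0.96, 1.19 and 1.30, and for TRM34 -0.86, -0.65 and -0.67, under anoxia with sucrose, under anoxia and in air. TRM82, the tRNA modification gene, stood at -0.46 and -0.23 under anoxia with sucrose, -0.46 and 0.07 under anoxia and 0.26 and -0.29 in air, and its groups overlapped throughout.

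**Figure D1:**
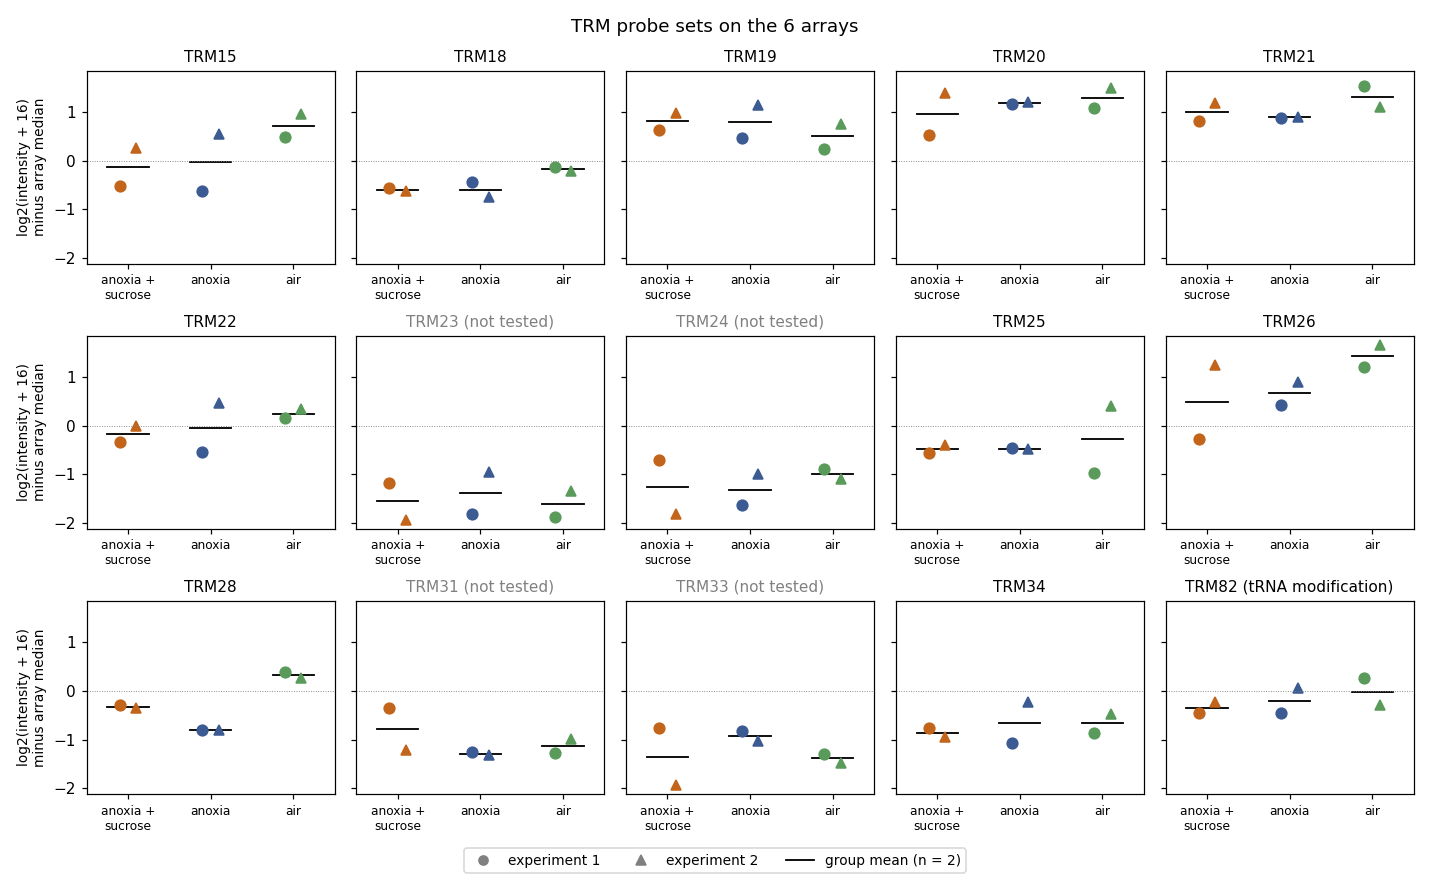
Each panel shows 1 TRM probe set, with log2(intensity + 16) minus the array median on the vertical axis and the 3 groups along the horizontal axis. Circles are experiment 1, triangles experiment 2 and bars group means (n = 2). TRM28 is the member whose 3 groups do not overlap, and grey titles mark the 4 members that were too dim to test.

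Over the 11 tested members, the range of group means exceeded the largest replicate difference for 3, TRM28, TRM18 and TRM21. Over all 15922 probe sets tested the same held for 22.3%, so that the members' share lay near the background. TRM21 passed this by little (0.43 against 0.42), and TRM18 had 0.43 against 0.31.

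**Figure D2:**
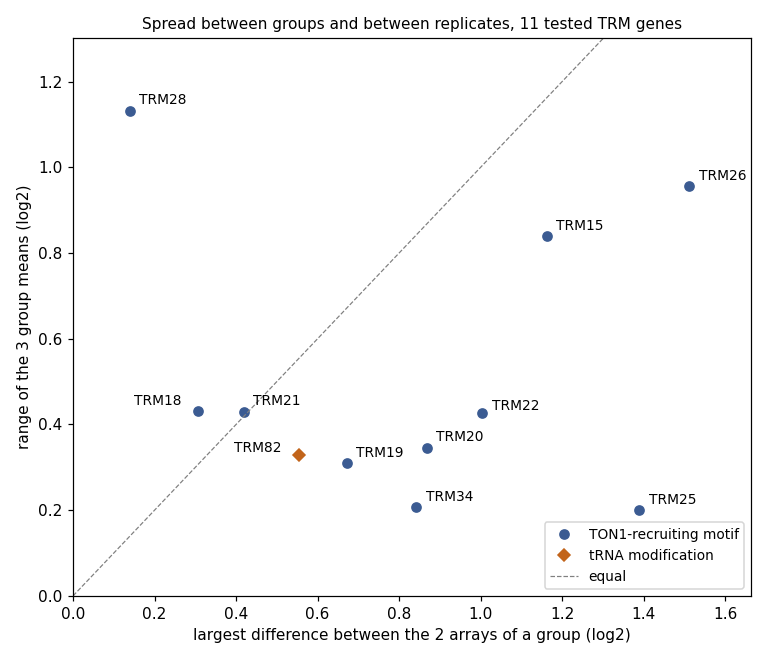
The range of the 3 group means (vertical axis, log2) is plotted against the largest difference between the 2 arrays of a group (horizontal axis, log2) for the 11 tested TRM genes. TRM28 lies far above the dashed line of equality (1.13 against 0.14), TRM18 and TRM21 just above it and the other 8 below it.

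Anoxia was first set against air, with no sucrose on either side, to ask what 6 h without oxygen does. Most TON1-recruiting-motif genes had a lower mean under anoxia than in air, but no single gene passed the test. Of the 10 tested, 8 lay below 0, where 42.5% of all probe sets did. The family median was -0.36 on the log2 scale, with -0.48 for experiment 1 and -0.35 for experiment 2, beside 0.08 for all probe sets tested. In 4 of the 10 both anoxia arrays lay below both air arrays (TRM18, TRM21, TRM26 and TRM28), where 14.9% of all probe sets did. The direction was down in both experiments for 5 (24.2% of all) and up in both for 1, TRM19 (34.3% of all). Without the anoxia array of experiment 1 the median was -0.19 and 7 of 10 lay below 0, and without the air array of experiment 2 it was -0.33 and 6 did.

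No TRM gene was called by limma at an adjusted p under 0.05, where 0.232% of all probe sets were, and 1 of 11 had an unadjusted p under 0.05, where 6% of all did. With the experiment number as a block 3 of 11 had one, TRM28, TRM15 and TRM26, where 11.8% of all did. The 1 gene without the block was TRM28, at -0.80 ± 0.00 under anoxia and 0.33 ± 0.10 in air (SD, n = 2 each), a log2 change of -1.13 ± 0.29 (SE, adjusted p = 0.246), which is 0.456 times the air level on this scale. Its 95% interval ran from -1.77 to -0.50, and its change was -1.20 in experiment 1 and -1.06 in experiment 2. With the experiment number as a block in the limma fit TRM28 passed (adjusted p = 0.0343), the 1 member of 11 to do so, where that fit called 1.58% of all probe sets as lower. That call is not firm: with the block kept and a further setting changed it passed in 3 of 12 cases, and the adjusted p was 0.0566 with quantile normalization and 0.0665 with 1 in place of 16 added before log2. One of the 2 anoxia arrays read below 16, and with 1 added the change was -1.74.

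TRM26 was at -0.77 ± 0.51 and TRM15 at -0.75 ± 0.45 (SE of the fit without the block, here and below). TRM26 changed by nearly the same amount in both experiments (-0.78 and -0.77), and TRM15 by -1.09 and -0.41. Neither passed in limma, with adjusted p = 0.37 for TRM26 and 0.262 for TRM15 when the experiment was a block. TRM21 was at -0.43 ± 0.38 (-0.64 and -0.22 by experiment) and TRM18 at -0.43 ± 0.29 (-0.31 and -0.55). TRM25 went opposite ways in the experiments, at 0.52 and -0.90, and so did TRM82, at -0.73 and 0.36. On the upper side TRM19 was at 0.30 ± 0.39, with 0.23 and 0.37 by experiment, and TRM34 at 0.02 ± 0.35. The intervals are wide, that of TRM19 from -0.57 to 1.18 and that of TRM20 from -1.06 to 0.85, so that changes within these bounds lie within the error for both genes.

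Root hair markers, like TRM28, had their lowest mean under anoxia. Of the guard cell line markers, SPCH and MUTE did as well, while FMA had its highest mean there. SPCH went opposite ways between anoxia and air, at -1.33 in experiment 1 and 0.78 in experiment 2. MUTE read 3.2 to 11.5 over the arrays and was too dim to test. Both root hair markers with a probe set, EXPA18 and EXPA7, are wall-loosening expansins. EXPA18 read 2.1 under anoxia in experiment 2, and EXPA7 read 2.4 to 17.8 over the arrays. Their summed intensity over the array median was 1.40 and 0.470 under anoxia with sucrose, 0.541 and 0.153 under anoxia and 1.40 and 0.727 in air. EXPA18 was at -0.86 ± 0.38 between anoxia and air (adjusted p = 0.828 by limma), and EXPA7 was too dim to test. For dividing cells, the summed AUR1 and AUR2 signal was 2.54 and 3.28, 3.64 and 3.30, and 4.38 and 3.38 for the same groups in that order. Between anoxia and air 5 of the 7 markers tested lay below 0 (42.5% of all probe sets did), with a median of -0.14. The part of the 9 markers in the TRM values was not tested.

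Seedlings given sucrose during anoxia were next compared with anoxic seedlings without it. The TRM genes showed no common direction. Of 10 TON1-recruiting-motif genes 7 lay below 0 (51.3% of all probe sets did), with a median of -0.05 beside -0.01 for all. The median was 0.01 in experiment 1 and 0.11 in experiment 2. This small value turned with single arrays: without the sucrose array of experiment 1 it was 0.19 and 2 of 10 lay below 0, and leaving out the experiment 2 anoxia array gave 0.16 with 3 below 0. No gene was lower in both experiments (21.2% of all were) and 1 was higher in both (25.6% of all).

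That gene was again TRM28, the 1 tested member whose sucrose arrays both lay above both anoxia arrays, as 9.47% of all probe sets did. It stood at -0.32 ± 0.04 with sucrose and -0.80 ± 0.00 without (SD, n = 2 each), a log2 change of 0.48 ± 0.29 (0.51 and 0.44 by experiment). In experiment 1 the rise held only relative to the array median, on the sucrose array with high 3′ to 5′ ratios. Its intensity there was 14.4, against 19.1 without sucrose. In experiment 2 it was 36.1 with sucrose and 11.6 without. The 95% interval ran from -0.16 to 1.11, and neither limma fit called it (adjusted p = 1, or 0.999 in the blocked fit). The other 10 tested members lay between -0.24 (TRM20) and 0.11 (TRM21). TRM26 was at -0.71 in experiment 1, on the sucrose array with high 3′ to 5′ ratios, and 0.34 in experiment 2. Limma called 0% of all probe sets here, 1.01% had an unadjusted p under 0.05, none of them a TRM gene, and 0.0188% passed with the block.

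Anoxia with sucrose was last set against air. The comparison combines both treatments and shares its arrays with those above. Of the 10 TON1-recruiting-motif genes 9 lay below 0, where 44.5% of all probe sets did. The median was -0.39 (-0.53 in experiment 1 and -0.43 in experiment 2), beside 0.06 for all. In 4 the groups did not overlap on the lower side (TRM15, TRM18, TRM22 and TRM28), as in 14.8% of all. Without the sucrose array of experiment 1 the median was -0.23 and 8 of 10 lay below 0. Scaling the arrays by their trimmed means set the median of all probe sets to -0.06 and that of the family to -0.54.

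Limma called no TRM gene (0.251% of all probe sets), with or without the block (3.31% of all with it), and without the block 1 of 11, TRM28, had an unadjusted p under 0.05 (6.75% of all). With the block 3 of 11 did (13.8% of all): the limma p was 0.00941 for TRM15, 0.0118 for TRM26 and 0.0317 for TRM28, with adjusted p = 0.154, 0.176 and 0.289. The SE that follow are those of the fit without the block. TRM26 was at -0.96 ± 0.51, with -1.48 in experiment 1 and -0.43 in experiment 2. TRM15 was at -0.84 ± 0.45 (-0.998 and -0.683 by experiment) and TRM28 at -0.65 ± 0.29 (-0.69 and -0.62). Without the block, TRM28 alone among the members had a 95% interval clear of 0, from -1.29 to -0.02 (adjusted p = 0.714). TRM19 was at 0.31 ± 0.39, the 1 family member above 0. TRM82 was at -0.33 ± 0.34, with -0.72 and 0.06 by experiment.

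**Figure D3:**
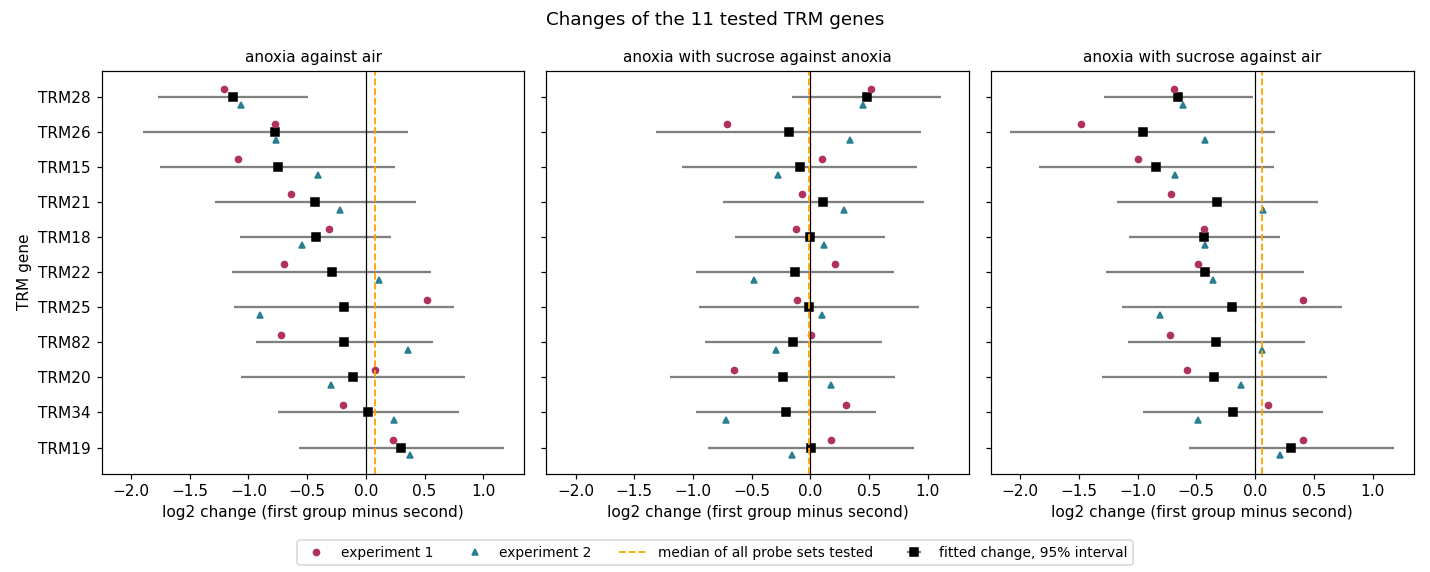
Log2 changes of the 11 tested TRM genes (rows) in the 3 comparisons, each as the first group named minus the second. Black squares are fitted changes with 95% intervals from limma without the block, circles and triangles the changes within experiments 1 and 2, and the dashed line the median of all probe sets tested. TRM28 is the gene whose interval lies wholly below 0 against air, in the left and right panels.

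Genes with the profile most like that of TRM28 and TRM26 were sought by Pearson correlation over the 6 arrays among 3596 tested single-gene probe sets whose group means span at least 0.5. For TRM28 they were AT1G61740 (r = 0.985), AT1G64405 (r = 0.977) and LBD29 (r = 0.977), a transcription factor of lateral root formation. For TRM26 they were AT2G40800 (r = 0.995), AT3G11320 (r = 0.992) and AT1G27190 (r = 0.989). Each of these, like TRM26, had its lowest value on the sucrose array of experiment 1, the one with high 3′ to 5′ ratios. All these correlations describe 6 points that share groups and experiments, and carry no test. LBD29 stood at -0.08 and -0.31 under anoxia with sucrose, -1.18 and -1.40 under anoxia and 0.85 and 0.37 in air, the same order of groups as TRM28.

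Other microtubule genes lay on both sides of 0 under anoxia. Of a list of 66 genes of the TON1 complex, tubulins, microtubule nucleation and associated proteins, division plane and OVATE partners, 13 had a single-gene probe set and all 13 were tested. Limma called 0 of them in each comparison, with or without the block, and 0 had an unadjusted p under 0.05. Between anoxia and air 6 of 13 lay below 0 (42.5% of all probe sets did) and the median was 0.03. Examples by the smallest p were TUB7, a beta tubulin, at -0.59 ± 0.49, MAP65-6, a microtubule-associated protein of the MAP65 family, at -0.57 ± 0.50, AN (ANGUSTIFOLIA), a regulator of leaf cell shape, at 0.38 ± 0.43, and TUB1, a beta tubulin, at 0.54 ± 0.69. TON1B, the partner for which the family is named, was at 0.21 ± 0.47, with 0.13 and 0.29 by experiment (chosen after its values were seen). The difference between this list and the TRM genes was not tested.

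With sucrose under anoxia 10 of these 13 lay below 0 (51.3% of all probe sets did), with a median of -0.09. SPR1, which keeps microtubules and cell growth straight, was at 0.63 ± 0.73, and TUA6, an alpha tubulin, at -0.47 ± 0.55. WDL3 was at 0.52 ± 0.79 and AN at -0.28 ± 0.43. The experiments went opposite ways. In experiment 1, on the sucrose array with high 3′ to 5′ ratios, all of the 13 but SPR1 lay below 0. In experiment 2 each of the 13 lay above 0. By experiment TUA6 was at -1.33 and 0.38, AN at -0.68 and 0.13, WDL3 at -0.22 and 1.27 and SPR1 at 0.90 and 0.36. For anoxia with sucrose against air 7 lay below 0 (44.5% of all probe sets did) and the median was -0.07. TUB7 was at -0.66 ± 0.49, SPR1 at 0.55 ± 0.73, TUA6 at -0.41 ± 0.55 and TUB1 at 0.50 ± 0.69. By experiment TUB7 was at -1.02 and -0.30, SPR1 at 0.69 and 0.41, TUA6 at -1.13 and 0.32 and TUB1 at 0.46 and 0.54. In experiment 2 all of the 13 but TUB7 lay above 0, while most lay below 0 in experiment 1.

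A list of 19 tRNA modification genes, fixed by locus, had 8 tested members, of which TRM82 alone is named in the gene table used. Limma called 0 of 8 in each comparison, with or without the block, and 0 had an unadjusted p under 0.05. The median was -0.17 for anoxia against air (6 of 8 below 0), -0.13 for anoxia with sucrose against anoxia (5 of 8) and -0.15 for anoxia with sucrose against air (6 of 8). Over all probe sets 42.5%, 51.3% and 44.5% lay below 0 in the same order of comparisons. By the smallest p, the first comparison had AT1G75200 at -0.32 ± 0.33, AT4G04670 at 0.26 ± 0.32, AT5G14600 at -0.24 ± 0.31 and AT2G45730 at 0.29 ± 0.50. In the second, AT1G22270 was at 0.87 ± 0.65, with 1.03 and 0.71 by experiment. There AT2G22400 was at -0.35 ± 0.40, AT5G24840 at -0.32 ± 0.38 and AT2G45730 at -0.31 ± 0.50. Against air with sucrose in the anoxic medium, AT5G24840 was at -0.49 ± 0.38, AT2G22400 at -0.38 ± 0.40, AT1G22270 at 0.49 ± 0.65, and TRM82 as given above.

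**Figure D4:**
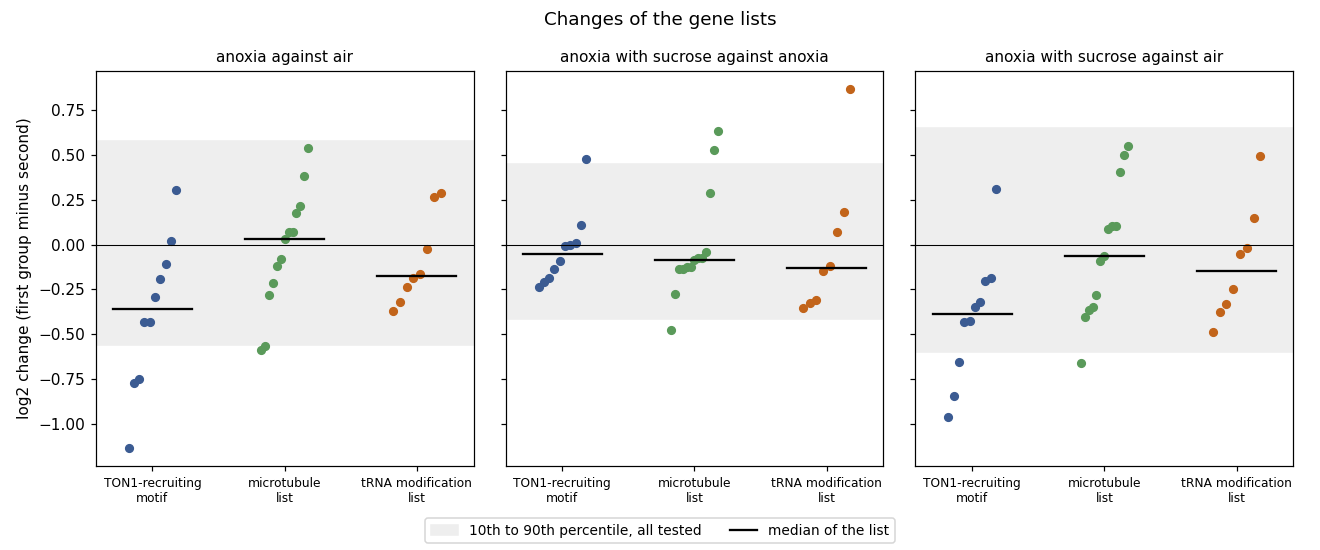
Log2 changes (vertical axis, first group minus second) of the 10 TON1-recruiting-motif genes, the 13 microtubule genes and the 8 tRNA modification genes tested, 1 point per gene, with list medians as bars. The grey band holds the 10th to 90th percentile of all probe sets tested. The family's medians are -0.36, -0.05 and -0.39 in the 3 comparisons, against 0.03, -0.09 and -0.07 for the microtubule list.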

How the data were processed

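Values as deposited are linear intensity, with 22810 probe sets on each of 6 Affymetrix arrays. Per the labels, targets came from total RNA by the usual Affymetrix procedure. Which software produced the intensities, and how it scaled them, is not given in the sources used here. Here 64 control probe sets were dropped, log2(intensity + 16) was formed and the median of each array was subtracted. The dimmest 30% of probe sets by mean were set aside, which left 15922 for testing. Groups were compared with limma 3.58.1 in R 4.3.3. One model held the 3 groups and all 6 arrays, with an intensity-trended eBayes prior, two-sided p-values and Benjamini-Hochberg adjustment over all tested probe sets at 0.05. Residual degrees of freedom were 3, to which the prior added 6.97. The code was tested on simulated data. The number of arrays limits the precision. Per the labels the experiments were independent. The p-values rest on the spread between these arrays, drawn for each gene towards that of probe sets of like intensity. Without the block that spread includes differences between the experiments.

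Names come from the platform annotation through gene numbers in RefSeq's table of assembly TAIR10.1, which served for names only. Every member is named. Other genes were named by the smallest p in a list (up to 4 a comparison) or by likeness to the 2 family members with the widest range of group means. Members and lists were chosen with earlier results of these data known. Titles give each array an experiment number, taken as pairing the arrays. Replicate differences correlated across probe sets at r = 0.562 between the anoxia groups, 0.392 between anoxia with sucrose and air and 0.383 between anoxia and air. Alternatives were other constants, filters and scalings, no trend, 2 groups per fit, the experiment as a block, and leaving out each array.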

Additional observations from a re-analysis of the deposited data

How the results depend on the processing

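The count of TRM genes called was 0 in each comparison under 14 of the 15 alternatives, and the exception was the replicate block for anoxia against air, with 1, TRM28. Without the block its adjusted p lay between 0.193 and 1 over 14 settings (it is too dim for the 50th percentile filter). With the block and a further setting, added after seeing the data, it was 0.00789 without the filter, 0.0335 with trimmed mean scaling and 0.0481 with a constant of 64, and 0.121 without the intensity trend. With the block and 1 array left out it lay between 0.0664 and 0.425. The block changed no other TRM call. The counts of the microtubule and tRNA modification lists stayed at 0 throughout.

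The family median for anoxia against air (-0.36) was -0.45 with a constant of 1, -0.17 with 64 and -0.24 without the filter, and -0.42 to -0.19 with 1 array left out. Without the filter 10 of 14 lay below 0, where 42.8% of all probe sets did. For anoxia with sucrose against anoxia (-0.05) it was -0.19 with a constant of 1, -0.16 with quantile normalization, -0.20 with trimmed mean scaling and -0.29 to 0.19 with 1 array left out. For anoxia with sucrose against air (-0.39) it was -0.59, -0.21 and -0.29 with constants of 1 and 64 and without the filter, -0.46 with quantile normalization, -0.54 with trimmed mean scaling and -0.54 to -0.23 with 1 array left out. These medians with 1 array left out come from fits without the block, which assume that the lone array varies like the others and mix the experiments. No array left out turned the sign of the median in either comparison with air.

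Over all probe sets, calls for anoxia against air (37) were 2 with a constant of 1, 82 with 64, 88 without the filter, 23 with quantile normalization, 24 with trimmed mean scaling, 14 without the trend, 82 with 2 groups, 404 with the replicate block and 0 to 81 with 1 array left out. For anoxia with sucrose against air (40) they were 14 with a constant of 1, 99 with 64, 118 without the filter, 22 with quantile normalization, 20 without the trend, 17 with 2 groups, 527 with the replicate block and 0 to 71 with 1 array left out. For anoxia with sucrose against anoxia (0) they were 3 with the replicate block. The causes were not tested. With 2 arrays a group, intervals of single members spanned more than 2-fold.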
